A study of Mus musculus with 18 samples.

Results

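The DLK-JNK axon injury kinase pathway was followed here as a list of 10 genes among the 47643 genes counted in each library. The list holds the 2 dual leucine zipper MAP3 kinases Map3k12 (DLK) and Map3k13 (LZK), the 2 MAP2 kinases Map2k4 and Map2k7, the 3 JNK genes Mapk8, Mapk9 and Mapk10, and the 3 JNK-interacting scaffolds Mapk8ip1, Mapk8ip2 and Mapk8ip3. The members were chosen by name and not by their values in a comparison, though with earlier results of these data known. All 10 were above the filter on low values, so each was tested at every time point.

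DLK and LZK sit in axons and respond to axon damage. They phosphorylate the MAP2 kinases, which in turn activate the JNK kinases, while JIP scaffolds hold the tiers together and link them to kinesin transport. The signal travels back to the cell body, where JNK phosphorylates Jun and the injury genes are transcribed. The relay works by phosphorylation, which RNA sequencing does not measure, so the values below are transcript levels and not kinase activity.

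The cells were sensory neurons of the dorsal root ganglion (DRG), taken from CD-1 mouse embryos at e13.5 and grown as spot cultures with FDU, a mitotic inhibitor that removes dividing cells. Control cultures were collected uninjured after 7 days in vitro (DIV7), and the other 5 groups had their axons cut with a blade and were harvested at 1 of 5 times, 1, 3, 8, 16 or 24 hours later, given as hours post injury (HPI). No uninjured group was harvested at the later times, so injury cannot be told apart from longer time in culture or from handling. The labels name no transgene or deletion in any group. Each of the 6 groups had 3 libraries of rRNA-depleted total RNA, numbered 1 to 3, giving 18 in all. The sources used here do not say whether the 3 replicates were separate cultures or pools of embryos, so the tests measure the spread between these libraries.

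Depth was 9478891 to 23082327 counts on genes per library, of which the 10 members took 21683 to 50994. The 5 sensory neuron markers, among them the neuronal tubulin Tubb3, summed to 3411 to 4683 CPM (counts on a gene scaled by the library's total on all genes) in the libraries. The summed level was at most 12.8 CPM for 7 glial markers, 10.3 CPM for 5 fibroblast markers, 6.83 CPM for 3 myeloid markers and 1.36 CPM for 3 endothelial markers. The pan-leukocyte gene Ptprc passed 3 counts in 1 of 18 libraries, the endothelial cadherin Cdh5 in 2, and the glial filament gene Gfap in 4. Neuronal markers were lower late in the course, at 3411 to 3735 CPM 16 hours and 3437 to 3845 CPM 24 hours after injury against 4017 to 4584 CPM in control, with no overlap between control and either late group. The sum is a share of each library's counts and not a count of cells, and the reason for its fall was not tested. Its largest part was Tubb3, at 2017 to 3131 CPM over the 18 libraries. Residual rRNA and mitochondrial genes took 15.8% to 27.0% of the counts, with the largest shares in replicate 1 at 16 HPI (27.0%) and replicate 1 at 24 HPI (24.9%).

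Member levels between genes were compared as RPKM, that is, TMM-normalised CPM per kilobase of exon, in the control libraries. The scaffold Mapk8ip1, which ties JNK to its kinases, was the most abundant at 112 ± 1.27 RPKM (SD, n = 3). Mapk8ip2, its close relative in neurons, followed at 78.9 ± 4.87 RPKM. Below these came the MAP2 kinase Map2k4 at 39.9 ± 1.96 RPKM. JNK2, encoded by Mapk9, stood at 34.7 ± 1.77 RPKM and Mapk8ip3, the scaffold that binds kinesin, at 33.0 ± 2.72 RPKM. Those were the only neighbours in the order whose control libraries overlapped. Mapk10, the JNK gene largely restricted to neurons, had 16.4 ± 1.26 RPKM and Mapk8 had 9.52 ± 0.478 RPKM. The upstream kinases were the scarcest along with the second MAP2 kinase: Map3k12 stood at 7.50 ± 0.627 RPKM, Map2k7 at 6.17 ± 0.272 RPKM and Map3k13 at 1.83 ± 0.0489 RPKM. These lengths count every annotated exon, so a gene with many alternative exons is set lower on this scale. By the length of the longest transcript, an alternative added after the data were seen, Mapk8ip3 moved up to the third place at 66.1 RPKM, Map2k4 (50.4 RPKM) and Mapk9 (50.2 RPKM) overlapped, and the order of the other members was kept.

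**Figure D1:**
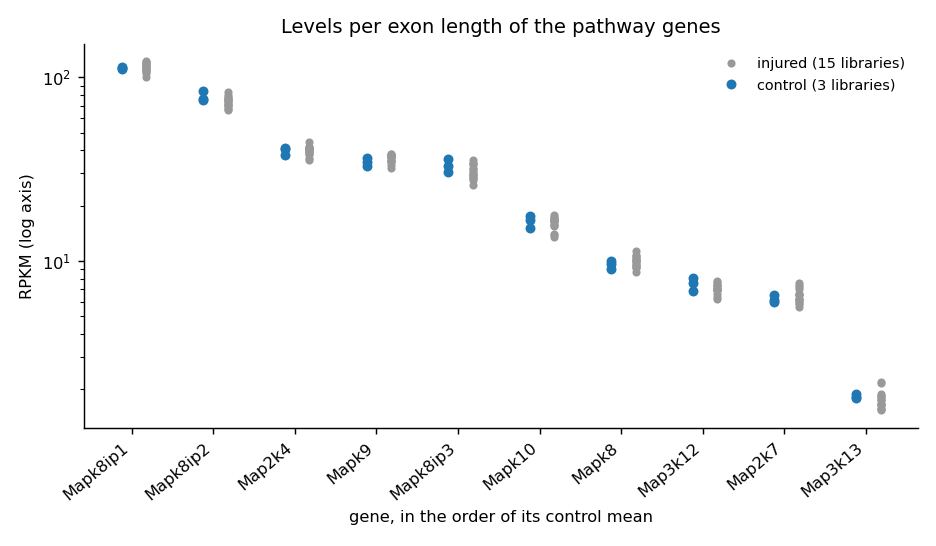
RPKM on a log axis for the 10 pathway genes, in the order of their control means; blue points are the 3 control libraries and grey points the 15 injured ones. The control means run from 112 RPKM for Mapk8ip1 to 1.83 RPKM for Map3k13, and the injured libraries lie on or near the control points of the same gene.

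Within families, the proportions were uneven. In control, Map3k12 made up 80.4% ± 1.75 (SD, n = 3) of the RPKM of the 2 MAP3 kinases. Map2k4 made up 86.6% ± 1.10 of the MAP2 kinase RPKM. Among the JNK genes, Mapk9 held 57.2% ± 1.37, Mapk10 27.1% ± 1.09 and Mapk8 15.7% ± 0.355. Among the scaffolds, Mapk8ip1 held 50.1% ± 0.820, Mapk8ip2 35.1% ± 1.67 and Mapk8ip3 14.7% ± 1.36. By the longest transcript the shares of Map3k12, Mapk9 and Mapk8ip3 were 87.5%, 53.2% and 21.6%.

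After injury, no member changed by 2-fold at any time, as 0.029%, 0.029%, 0.537%, 1.49% and 0.821% of all tested genes did, with an adjusted p under 0.05, at 1, 3, 8, 16 and 24 HPI. Over the 50 comparisons with control (10 members at 5 times), the fitted log2 fold change lay between -0.21 and 0.19. The 95% intervals reached no lower than 0.780-fold and no higher than 1.25-fold. In edgeR's quasi-likelihood test, 2 of the 50 had an adjusted p under 0.05, Map3k12 at 16 HPI and Mapk8ip3 at 24 HPI, both lower than control, and 9 had an unadjusted p under 0.05. The other 8 members passed at no time. At 1, 3 and 8 HPI, 0 of 10 members passed, with 2, 0 and 1 of them at an unadjusted p under 0.05. Of all 13771 tested genes, 0.276% passed after 1 hour, 0.189% after 3 hours and 7.68% after 8 hours. At 16 HPI, 1 of 10 members passed, where 22.2% of all genes did and 11.5% of all genes were lower. At 24 HPI, 1 of 10 passed, where 15% of all genes did and 9.03% of all genes were lower. At 16 and 24 HPI DESeq2 called 2 and 1 members, and at the 3 earlier times none. Median member changes on the log2 scale were -0.06, -0.01, 0.06, -0.05 and -0.01 at 1, 3, 8, 16 and 24 HPI, and the median of all tested genes at 16 HPI was -0.0022.

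**Figure D2:**
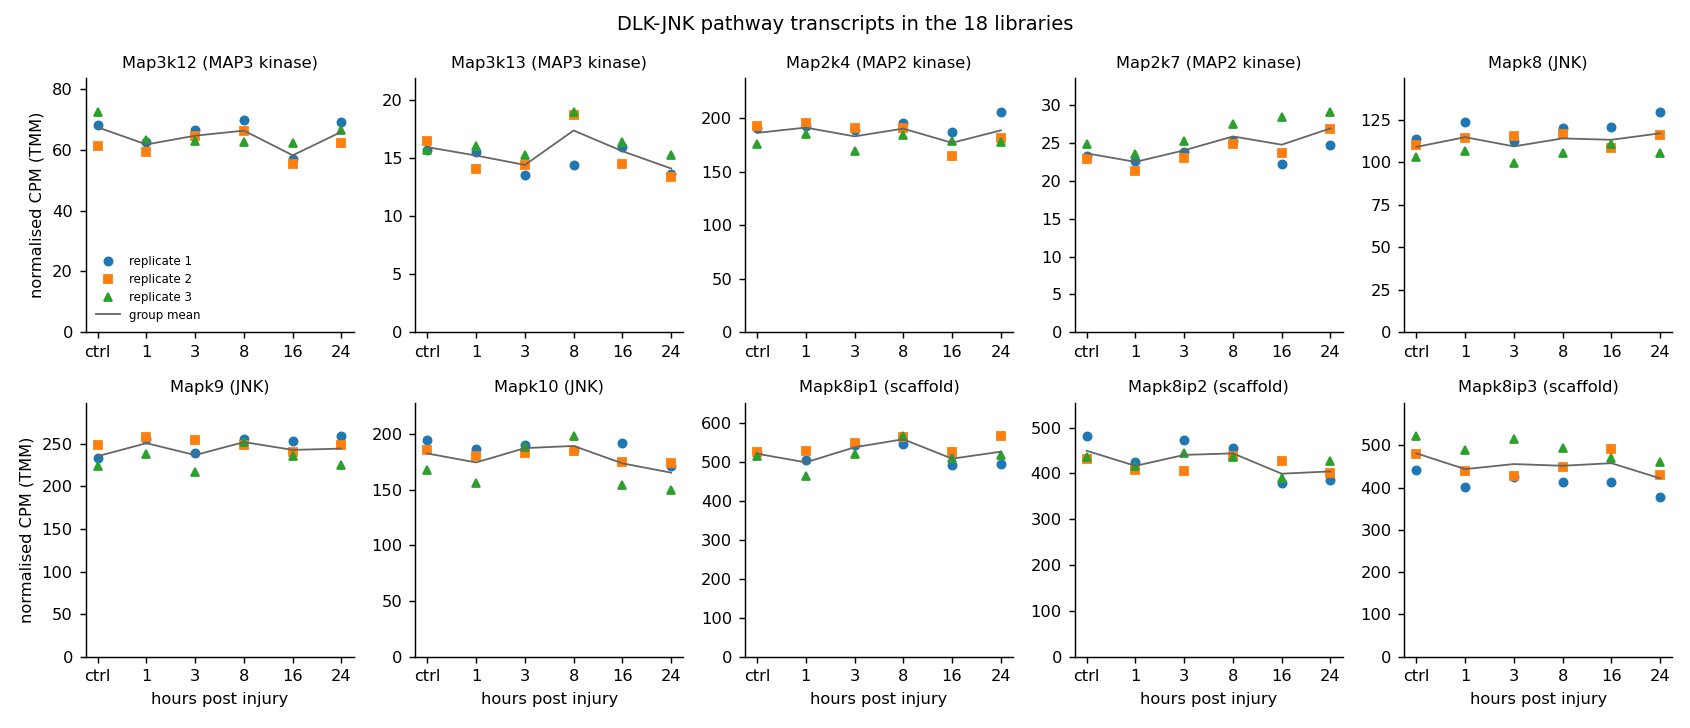
TMM-normalised CPM of each member (vertical axes from 0) against hours post injury, with 1 panel per gene; markers are the 3 replicates and the grey line joins the group means. The widest range is that of Map3k13, whose highest library was 1.42 times its lowest.

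Map3k12, whose protein DLK is the kinase that starts the retrograde injury signal, was counted at 68.2, 61.5 and 72.7 normalised CPM in control replicates 1, 2 and 3. Its values were 62.5, 59.5 and 63.4 CPM at 1 HPI, 66.7, 64.5 and 62.9 CPM at 3 HPI, and 70.0, 66.4 and 62.7 CPM at 8 HPI. At 16 HPI they were 56.9, 55.4 and 62.5 CPM, and at 24 HPI 69.3, 62.2 and 66.4 CPM. The 16 HPI libraries were each below the control library of the same replicate number, although the highest of them, 62.5 CPM, lay above the lowest control library. Map3k12 fell by 0.21 on the log2 scale at 16 HPI (SE 0.0588, 13.7% lower in the fit, adjusted p = 0.0120 in edgeR), with a 95% interval from -0.33 to -0.09. The summed neuronal markers, in CPM without TMM, were lower at the same time, at 3411 to 3735 CPM against 4017 to 4584 CPM in control. Their part in the result was not tested. Map3k12 was also lower at 16 HPI than at 8 HPI, by -0.18 (SE 0.0597, adjusted p = 0.0420), where 15.2% of all genes passed and 7.86% of all genes were lower. From 16 to 24 HPI the difference was 0.18 (SE 0.0585, adjusted p = 0.0597). At 24 HPI it differed from control by -0.03 (95% interval from -0.15 to 0.09). The call at 16 HPI was lost without control replicate 3 (-0.16, adjusted p = 0.107) or without 16 HPI replicate 1 (-0.17, adjusted p = 0.0726), the library with the largest residual rRNA and mitochondrial share. With those genes left out of all libraries the change was -0.21 with adjusted p = 0.0128, and without the replicate number in the model adjusted p was 0.104. The difference between 16 and 8 HPI was lost in 14 of 26 alternatives, with adjusted p from 0.0508 to 0.239. Among them were 8 that left out a library, namely control replicate 1, 1 HPI replicates 1 and 2, 3 HPI replicate 1, 8 HPI replicates 1 and 2, and 16 HPI replicates 1 and 2, where it ranged from -0.18 to -0.14. The rise from 16 to 24 HPI passed when the third library of 8 HPI (adjusted p = 0.0417) or of 16 HPI (0.23, adjusted p = 0.0356) was omitted.

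Map3k13, which encodes LZK, a kinase that can act in parallel with DLK, had 15.7, 16.4 and 15.6 CPM in control. It stood at 13.51, 14.4 and 15.2 CPM at 3 HPI and at 14.4, 18.7 and 19.0 CPM at 8 HPI. Replicates 2 and 3 at 8 HPI were the highest of its 18 libraries, while replicate 1 at that time was below every control. Against control at 8 HPI the difference was 0.11 (SE 0.0896, adjusted p = 0.501), and against 3 HPI it was 0.26 (SE 0.0894, adjusted p = 0.176), the highest of the 30 differences between neighbouring late times. Of those 30, 1 passed, Map3k12 between 8 and 16 HPI, where the shares of all genes that passed were 2.3% from 3 to 8 HPI, 15.2% from 8 to 16 HPI and 9.82% from 16 to 24 HPI. With the first 8 HPI library omitted, the difference of Map3k13 between 8 and 3 HPI was 0.37 (adjusted p = 0.0426). At 24 HPI its difference from control was -0.17 (SE 0.0884, adjusted p = 0.201). Map3k13 had the fewest counts of the 10, 176 to 375 per library, and the widest errors.

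Map2k4, which phosphorylates both JNK and p38, had control values of 190, 193 and 176 CPM, and its differences from control lay between -0.07 at 16 HPI and 0.04 at 1 HPI. Map2k7, which is specific to JNK, had 23.3, 22.8 and 24.8 CPM in control, 25.2, 24.8 and 27.6 CPM at 8 HPI, 22.3, 23.7 and 28.4 CPM at 16 HPI, and 24.8, 26.9 and 29.2 CPM at 24 HPI. Each 24 HPI library was above its control of the same number, and the groups overlapped only in that the lowest 24 HPI library and the highest control library both stood at 24.8 CPM. The difference at 24 HPI was 0.19 (SE 0.0655, 95% interval from 0.05 to 0.33, adjusted p = 0.0545). It passed without 16 HPI replicate 1 (adjusted p = 0.0462) or 3 (0.0450). In the test of any difference between the 6 groups, which 30% of all genes passed, Map2k7 was the 1 member that passed (adjusted p = 0.0379), and Map3k12 had adjusted p = 0.0568. That call of Map2k7 was lost in 14 of 25 alternatives, with adjusted p from 0.0502 to 0.508. The libraries whose omission lost it were control replicates 2 and 3, 1 HPI replicates 2 and 3, 3 HPI replicate 3, all 3 of 8 HPI, and 24 HPI replicates 2 and 3, with adjusted p up to 0.119.

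The JNK genes showed small differences in both directions. Mapk8, which encodes JNK1, had 114, 110 and 103 CPM in control and 130, 116 and 105 CPM at 24 HPI, a difference of 0.10 (SE 0.0476, adjusted p = 0.177). Mapk9 differed by 0.09 at 1 HPI (adjusted p = 0.446) and by 0.10 at 8 HPI (adjusted p = 0.227). Mapk10, which encodes JNK3, had 195, 185 and 167 CPM in control and 171, 174 and 150 CPM at 24 HPI. It was lower in all 3 replicates at 24 HPI, by -0.14 (SE 0.0624), and did not pass the adjustment (adjusted p = 0.133).

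Among the scaffolds, Mapk8ip3 encodes JIP3, which carries DLK and JNK along axons with kinesin and dynein. It had 442.5, 479 and 522 CPM in control, 402.5, 440 and 488 CPM at 1 HPI, and 377, 429 and 459.6 CPM at 24 HPI. The 24 HPI group overlapped with control, but each library was lower than its same-numbered control. Mapk8ip3 fell by 0.19 at 24 HPI (SE 0.0526, 12.4% lower in the fit, adjusted p = 0.0171 in edgeR), with a 95% interval from -0.30 to -0.08. The summed neuronal markers, in CPM without TMM, were lower then too, at 3437 to 3845 CPM, and their part in the result was not tested. Leaving out control replicate 1, 2 or 3 gave adjusted p = 0.0714, 0.0570 and 0.0502, and leaving out 24 HPI replicate 1 or 3 gave 0.0803 and 0.0503, with changes from -0.19 to -0.18. Without the replicate number in the model adjusted p was 0.506. Replicate 1 was the lowest library of this gene in all 6 groups. Mapk8ip2, a scaffold of the brain and ganglia, had 481, 431 and 436 CPM in control and 380, 428 and 391 CPM at 16 HPI, all 3 lower than their controls. The difference was -0.17 (SE 0.0618, adjusted p = 0.0558), which did not pass. In DESeq2's Wald test adjusted p was 0.0378. In edgeR it passed when the second library of 3 HPI (adjusted p = 0.0409) or of 16 HPI (-0.24, adjusted p = 0.00847) was omitted. Mapk8ip1 stayed between -0.06 and 0.10 of control on the log2 scale, highest at 8 HPI with 546, 565.5 and 567 CPM against 525, 526 and 515 CPM in control.

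**Figure D3:**
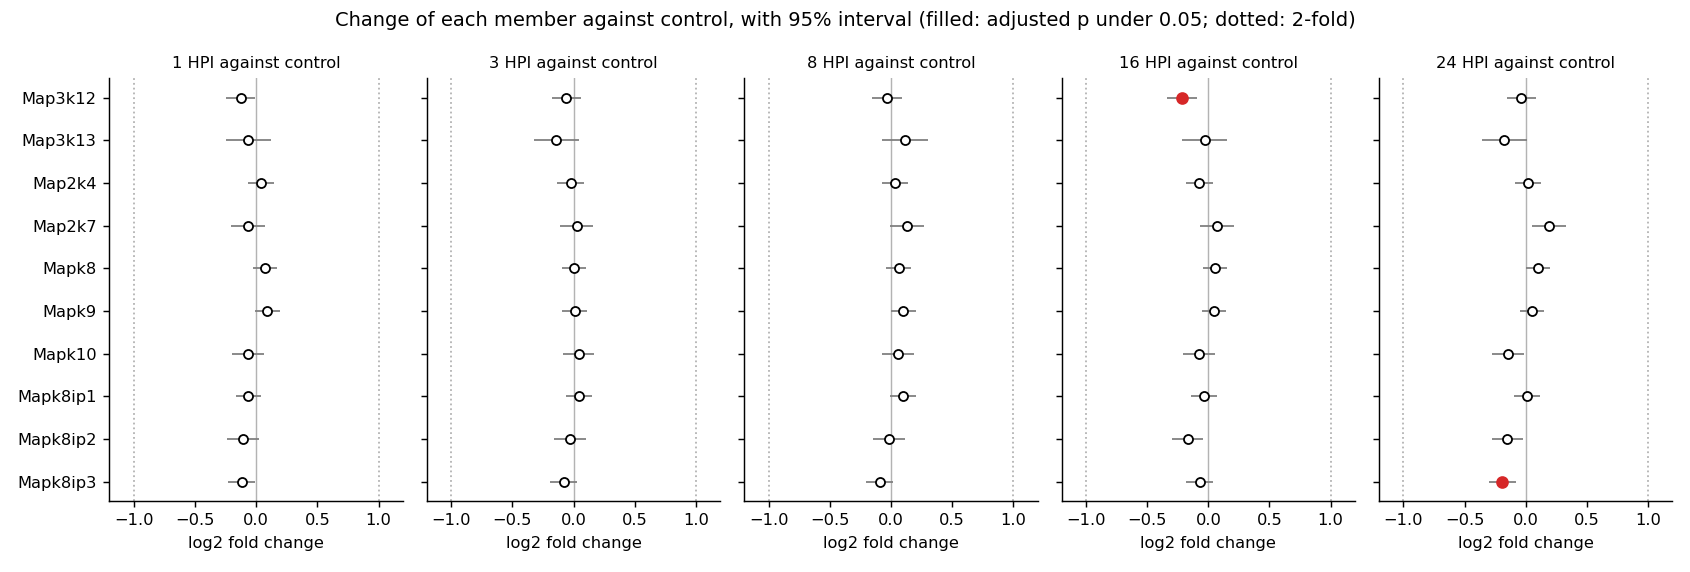
Log2 fold change against control of the 10 members (horizontal axis) at each time, with 95% intervals from edgeR's quasi-likelihood fit; filled red points had an adjusted p under 0.05 and the dotted lines mark a 2-fold change. The filled points are Map3k12 at 16 HPI (-0.21) and Mapk8ip3 at 24 HPI (-0.19), and all intervals lie well inside the dotted lines.

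Ratios between members, which do not depend on library scaling, were compared over the 6 groups by a two-sided permutation test of the time labels within replicate numbers. The ratio of Map3k12 to Map3k13 was 4.10 in control, 3.63 at 16 HPI and 4.55 at 24 HPI (permutation p = 0.148). The ratio of Map2k4 to Map2k7 was 6.47 in control and 5.75 at 24 HPI (permutation p = 0.0236, adjusted over the 4 ratios p = 0.0584). The share of Mapk10 among the JNK genes was 27.1% ± 1.09 in control, 25.0% ± 0.850 at 1 HPI and 24.3% ± 0.715 at 24 HPI (permutation p = 0.0443, adjusted p = 0.0591). The share of Mapk8ip3 among the scaffolds was 14.7% ± 1.36 in control and 13.6% ± 0.810 at 24 HPI (permutation p = 0.0292, adjusted p = 0.0584). None of the 4 passed after adjustment. For a single time against control, the exact permutation of signs over 3 pairs cannot go below p = 0.25, so no single time could pass. The share of Mapk10 stood at that floor at 1, 16 and 24 HPI. So did Map2k4 over Map2k7 at 1, 3 and 8 HPI and the share of Mapk8ip3 at 3, 8 and 24 HPI.

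The level of Mapk8 ran against that of Mapk8ip3 over the 18 libraries once the replicate effect was removed (Pearson r = -0.85) and against Mapk8ip2 (r = -0.76), and with Mapk9 (r = 0.69). These are descriptions over libraries that share normalisation and time points. Among 8797 genes over 10 CPM on average, those most like Map3k12 in this measure were Kifc2 (r = 0.86), Arhgef17 (r = 0.83) and the p38 gene Mapk12 (r = 0.83). The closest to Map3k13 were Tmc7 (r = 0.80), Myo16 (r = 0.78) and Magi3 (r = 0.77), and to Map2k7 they were Fam19a1, Celf3 and Vps37d (r = 0.86 for each, to 2 decimals).

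Genes around the members were read from lists of 68 pathway genes, of which 66 were tested. Mapk13 and Sprr1a had at most 2 counts in any library and were not tested. At 1 and 3 HPI, 0 of the 66 passed, with 8 and 12 at an unadjusted p under 0.05, and DESeq2's Wald test called 2 and 3. At 8 HPI 14 passed, 11 of them higher, where 3.78% of all genes were higher. At 16 HPI 28 passed, 18 of them higher, against 10.7% of all genes, and at 24 HPI 14 passed, 8 of them higher, against 5.99%. With no replicate number in the model 4, 9 and 3 passed at these times. The lists were made with results on these samples known, so their direction is not independent evidence.

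Of the 7 tested injury genes downstream of DLK, 5 rose at 8 HPI (Atf3, Ddit3, Bbc3, Bcl2l11 and Sox11), and these and Hrk at 16 HPI. Of all genes, 3.78% and 10.7% were higher at these times. The list medians were 0.98 and 0.77 on the log2 scale. Over the alternatives 2 to 6 passed at 8 HPI and 3 to 6 at 16 HPI, the lowest of each with no replicate number in the model. The rise of Hrk (0.22) did not pass with control replicate 1 or 2 or any 16 HPI library omitted, with adjusted p from 0.0678 to 0.237. Atf3, a transcription factor of the injury response, was counted at 7.64, 14.2 and 18.6 CPM in control, 65.9, 63.1 and 64.5 CPM at 8 HPI and 119, 121 and 115 CPM at 16 HPI. It rose by 2.29 at 8 HPI (adjusted p = 1.8e-06) and 3.16 at 16 HPI (adjusted p = 4.1e-09), and was still 1.19 higher at 24 HPI (adjusted p = 0.0011). Ddit3, which encodes CHOP of the integrated stress response, rose by 1.06 at 8 HPI and 1.11 at 16 HPI. The pro-apoptotic BH3 gene Bcl2l11 had 3.06, 1.92 and 3.52 CPM in control and 7.39, 4.99 and 5.97 CPM at 8 HPI, a rise of 1.09. Its rise of 0.64 at 16 HPI did not pass when the first control (0.59), the second control (0.51) or the first 16 HPI library (0.415) was omitted, with adjusted p from 0.0990 to 0.207. The control and 8 HPI libraries of Atf3, Ddit3 and Bcl2l11 did not overlap. These genes were named for a change over 2-fold past the test, so their separation is no added evidence. The share of all genes that separate so was not counted.

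Of the 5 nuclear JNK substrates, Jun and Jund rose at 8 and 16 HPI, where 3.78% and 10.7% of all genes were higher. That count of 2 ran from 0 to 2 over the alternatives at both times. With no replicate number in the model neither passed, with adjusted p of 0.120 and 0.0958 for Jun and 0.247 and 0.161 for Jund at 8 and 16 HPI. The rise of Jund (0.28 and 0.22) also did not pass with control replicate 1 or 2 omitted, with 8 HPI replicate 1 omitted at 8 HPI (adjusted p = 0.126), or with 16 HPI replicate 2 or 3 omitted at 16 HPI (adjusted p = 0.0858 and 0.150). Jun, the principal target of JNK in the nucleus, was counted at 49.0, 30.6 and 38.4 CPM in control and 99.0, 71.7 and 70.6 CPM at 8 HPI. All 8 HPI libraries were above all controls, though Jun too was named for its change over 2-fold. It rose by 1.03 at 8 HPI (SE 0.0927, adjusted p = 1.5e-06) and 0.80 at 16 HPI, and differed from control by -0.06 at 24 HPI. At 1 HPI it stood at -0.43 with adjusted p = 0.0636. Of the 5 JNK phosphatases, Dusp1, Dusp4, Dusp8 and Dusp16 rose at 8 HPI, where 3.78% of all genes were higher. That count of 4 ran from 2 to 4 over the alternatives. At 16 HPI 3 passed higher and 1 lower, Dusp10 (-0.30, adjusted p = 0.0238), where 10.7% of all genes were higher and 11.5% lower. At 24 HPI 2 passed higher and 2 lower, Dusp8 (-0.24) and Dusp16, where 5.99% of all genes were higher and 9.03% lower. The call of Dusp8 was lost in 4 of 26 alternatives. Dusp1 and Dusp4 remove the activating phosphates from MAP kinases, JNK among them. Dusp1 went from 8.40, 11.5 and 10.6 CPM in control to 31.5, 34.1 and 29.1 CPM at 8 HPI, a rise of 1.64, and was 1.70 higher at 16 HPI. Dusp4 rose by 1.11 at 8 HPI and 2.01 at 16 HPI from a mean of 3.12 CPM. Dusp16 rose at 8 and 16 HPI and fell at 24 HPI, by 0.48. That fall was lost in 10 of 26 alternatives, among them leaving out any control library, 1 HPI replicate 2, or 24 HPI replicate 2 or 3, with adjusted p up to 0.277.

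**Figure D4:**
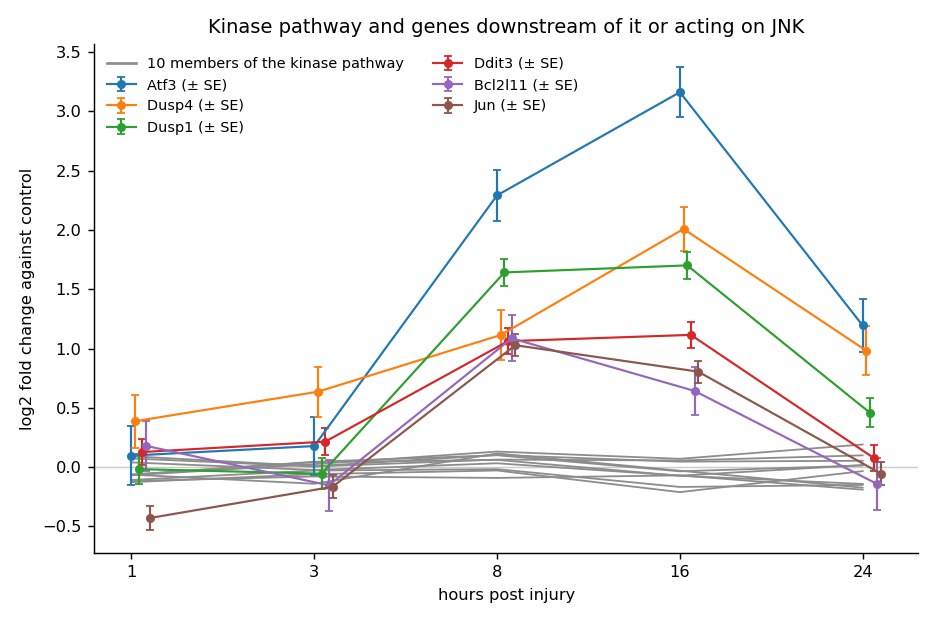
Log2 fold change against control (vertical axis) by hours post injury, with the 10 kinase pathway members in grey and the 6 pathway list genes over 2-fold in colour with their SE. At 16 HPI the coloured genes run from 0.64 (Bcl2l11) to 3.16 (Atf3), and the members lie between -0.21 and 0.07. The coloured genes were picked by their change in these data and the members were not, so the gap is no test.

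Of 12 upstream regulators, Mycbp2, Usp9x, Zdhhc17 and Prkaca fell and Tnik rose at 16 HPI, 5 genes in all and 2 to 5 over the alternatives, where 22.2% of all genes passed. The calls of Mycbp2 and Tnik were kept in all 26 alternatives, while those of Usp9x (-0.17), Zdhhc17 (-0.20) and Prkaca (-0.12) were lost in 8, 3 and 15. The omitted libraries were control 2 and 3, 1 HPI 2 and 16 HPI 2 and 3 for Usp9x, control 3 for Zdhhc17, and any control, 1 HPI 2, 3 HPI 3, 8 HPI 1 or any 16 HPI library for Prkaca, by replicate number, with adjusted p up to 0.241, 0.0695 and 0.190. Mycbp2, a large E3 ligase that limits DLK protein, fell by 0.28, 0.32 and 0.42 at 8, 16 and 24 HPI, from a mean of 412 CPM in control to 308 CPM at 24 HPI. Its call at 8 HPI was lost without control replicate 2 or 3 or without 8 HPI replicate 1 or 3, with changes from -0.28 to -0.23 and adjusted p from 0.0545 to 0.109. Tnik, a MAP4 kinase able to activate the JNK pathway, rose by 0.26 at 16 HPI (adjusted p = 0.00081). Of 15 other MAP3 kinases, 6 rose at 16 HPI and 0 fell, where 10.7% of all genes were higher and 11.5% lower, and the count ran from 1 to 6 over the alternatives. The highest changes were those of the mixed lineage kinase Map3k21 (0.72, adjusted p = 0.0087) and Map3k6 (0.72, adjusted p = 0.0247). Map3k21 did not pass with control replicate 1 (adjusted p = 0.0589) or 16 HPI replicate 3 (0.0504) omitted, and Map3k6 did not with control replicate 1 or 3 or 16 HPI replicate 1 or 3 omitted (adjusted p from 0.0717 to 0.118). Map3k11, the mixed lineage kinase MLK3, rose by 0.36 at 16 HPI (adjusted p = 0.00015) and by 0.20 at 24 HPI, the latter lost on leaving out any control or any 24 HPI library. Map3k5, the stress kinase ASK1, rose by 0.47 at 16 HPI (adjusted p = 0.0013), which was lost with no replicate number in the model (adjusted p = 0.223). Of 5 other JNK scaffolds, Mapkbp1 fell by 0.28 at 8 HPI (adjusted p = 0.0475) and Sh3rf1 fell by 0.22 at 16 HPI (adjusted p = 0.0351). Of all genes, 7.68% and 22.2% passed at these times. The call of Mapkbp1 was lost on leaving out any of 13 libraries (adjusted p up to 0.712 over all alternatives). That of Sh3rf1 was lost without control replicate 1 or 3 or 16 HPI replicate 1 or 2 (adjusted p from 0.101 to 0.130). Among 6 cytoskeletal JNK substrates, 3 passed at 16 HPI and 2 at 24 HPI, all lower, where 11.5% and 9.03% of all genes were lower. Over the alternatives these counts ran from 1 to 4 and from 1 to 2. The microtubule-associated Map1b fell by 0.24, 0.43 and 0.52 at 8, 16 and 24 HPI. Its call at 8 HPI was lost without control replicate 2 or 3 or 8 HPI replicate 1 or 3 (adjusted p from 0.0689 to 0.115). At 16 HPI Dcx fell by 0.18 (adjusted p = 0.0356) and Nefh stood at -0.36, while Map2 stood at 0.12 (adjusted p = 0.184). The late falls of Map1b came with the lower neuronal marker levels given above, and the part of those in the result was not tested. Of 11 tested genes in the p38 and ERK arms the ERK1 gene Mapk3 passed, lower by -0.15 at 16 HPI (adjusted p = 0.0448), where 22.2% of all genes passed. It was lower in 2 of 3 replicates, and the call was lost in 15 of 26 alternatives, 9 of which left out a library: control 2 or 3, any of 1 HPI, 3 HPI 1, 8 HPI 1, or 16 HPI 2 or 3 (adjusted p up to 0.255). The named Map2k3 and Map2k2 passed at no time.

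Promoter letters of the members are shown beside those of genes that rose, since AP-1 factors such as Jun, the target of JNK, bind known letters. The 250 bases before each start site in RefSeq (GRCm38.p6) were searched on both strands for TGANTCA, the AP-1 element, and for TGACGTCA and the looser TGACNTCA, which contains it, the CRE-like elements bound by Jun with ATF factors. Of 32851 promoters, 6.75%, 1.55% and 7.49% held them. Of the members, 9 had an entry, with 14 start sites in all, of which 1 held TGANTCA, 1 held TGACGTCA and 2 held TGACNTCA. Each match is printed below 5′ to 3′ on the strand of its gene with 20 bases on either side where the window allows, the matched letters in capitals. In Map3k12 the match began at -107 of its inner start site, counted in bases before the start, chr15:102510780-102510827 (- strand), in Map2k7 at -92 of its inner start, chr8:4239993-4240039 (+ strand), and in Mapk10 at -29, chr5:103211336-103211383 (- strand). For comparison, the matches in genes that rose are Jun at -45, chr4:95052240-95052287 (- strand), Dusp1 at -143, chr17:26508588-26508635 (- strand), and Ddit3 at -242, chr10:127290543-127290577 (+ strand). A match is a string of letters and not a binding site.
Map3k12: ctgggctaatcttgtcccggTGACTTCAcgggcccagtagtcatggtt
Map2k7: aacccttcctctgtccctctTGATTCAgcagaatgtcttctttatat
Mapk10: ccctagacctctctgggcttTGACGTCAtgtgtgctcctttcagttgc
Jun: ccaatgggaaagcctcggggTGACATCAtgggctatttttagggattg
Dusp1: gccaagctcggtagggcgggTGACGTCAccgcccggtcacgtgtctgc
Ddit3: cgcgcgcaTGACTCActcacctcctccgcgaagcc

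Of these 6 genes, Jun, Dusp1 and Ddit3 rose over 2-fold at 8 HPI, while the 3 members did not pass at that time. The windows of Atf3 and Bcl2l11, which rose too, held none of the 3 strings. Dusp4, the remaining list gene over 2-fold, had no promoter entry and was not searched.

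Some member counts are uncertain for reasons of position. On mm10 by the GENCODE vM21 annotation, Map3k12 (chr15:102497646-102517064, - strand) overlaps Pcbp2 and Gm10337 on the other strand. Mapk8ip3 (chr17:24892153-24936977, - strand) overlaps Mrps34 and Nme3 on the other strand and Eme2 on its own. Map2k7 (chr8:4238740-4247897, + strand) overlaps Gm49320 on its own strand, and Mapk8ip1 (chr2:92383676-92401263, - strand) overlaps 1700029I15Rik on the other and Mir7000 on its own. Map3k13 overlaps 1300002E11Rik on its own strand and 2610020F03Rik and Gm26744 on the other. Mapk10 overlaps Gm42522 and Gm43789, and Map2k4 overlaps Mir744, all on the member's own strand. Whether reads were counted by strand is not given in the sources used here. How reads were treated where exons of a partner and a member overlap is not given either. Such reads may have been left out of the member counts or added to them.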

How the data were processed

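RNA of 18 samples was sequenced (Ribo-Zero Gold, SMARTer). The authors deposited raw read counts per gene for each library. Per the study's methods reads were trimmed with cutadapt, aligned to mm10 with STAR and counted on GENCODE genes with featureCounts, whereas the submitters' processing notes name HTSeq. Entries for reads not assigned to a gene (25.2% to 33.2% of counts) were left out. Of 47643 gene IDs 47224 matched GENCODE vM21, which gave symbols, lengths and positions. Members and lists were chosen with earlier results of these data known.

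The 13771 genes that passed 1 CPM in 3 or more libraries were fitted with edgeR 4.0.16 (TMM, quasi-likelihood) in R 4.3.3 on time point and replicate number, over all 18 libraries, with Benjamini-Hochberg adjustment over all genes tested. An adjusted p under 0.05 counted as past the test. The study corrected for batch. Deviations from the group mean correlated in all 45 pairs of libraries with the same number (r 0.484 to 0.765), so the number was kept as a block. The 90 pairs with other numbers had r from -0.577 to -0.0423. Centring on the group mean makes those negative on average once the same-number pairs correlate, so they are no separate evidence. Ratios were tested by 100000 permutations within replicate numbers. The fit was tested on simulated data. Named genes were the members, pathway list genes over 2-fold and past the test, or otherwise the 2 with the smallest p per list, plus the 3 genes most correlated with Map3k12, Map3k13 and Map2k7. Other named list genes (such as Jund, Dusp16, Mapk3, Map3k6 and Map3k21) and the promoter search were chosen after values were seen. Alternatives were another normalisation, filter, test (DESeq2 1.42.0), block, fit or library set. A few marker genes are not reported here and enter no marker sum.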

Additional observations from a re-analysis of the deposited data

Results flagged for a closer look

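The difference of Map3k12 between 16 and 8 HPI was -0.18 on the log2 scale (adjusted p = 0.0420 in edgeR), a difference between 2 injured groups in a fit over all 18 libraries. It was lower in 3 of 3 replicates, from 70.0, 66.4 and 62.7 CPM at 8 HPI to 56.9, 55.4 and 62.5 CPM at 16 HPI, although replicate 3 differed by little. Replicate 1 at 16 HPI had the largest share of residual rRNA and mitochondrial counts (27.0%), and without that library the difference was -0.14 (adjusted p = 0.187). With those genes left out of all libraries it was -0.18 (adjusted p = 0.0466).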

How the results depend on the processing

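Over 26 alternatives, 18 of them leaving out a single library, no value past the test in either fit changed sign. Of the 80 member differences followed, 21 changed sign in some alternative while not past the test. Changes of members against control stayed between -0.26 and 0.23. With no replicate block the members past the test went from 1 to 0 at 16 HPI, at 24 HPI, from 8 to 16 HPI and over all 6 groups, and the list genes went from 14, 28 and 14 at 8, 16 and 24 HPI to 4, 9 and 3. The residual rRNA setting gave 2 members at 16 and at 24 HPI, DESeq2's Wald test (with or without independent filtering) 2 at 16 HPI, and over 1 CPM in all libraries 2 at 24 HPI. From 8 to 16 HPI the count was 0 with at least 10 counts, with over 1 CPM in all libraries and with the 2 groups alone, and over all 6 groups it was 0 with at least 10 counts. Leaving out a library gave 0 to 2 members at 16 HPI, at 24 HPI and over all 6 groups, 0 to 1 in each step between late times, and 0 at 1, 3 and 8 HPI. List genes past the test then ran from 0 to 1 at 1 and 3 HPI, 10 to 15 at 8 HPI, 17 to 28 at 16 HPI and 7 to 15 at 24 HPI. At 1 HPI the list count was 1 with at least 10 counts, 1 with residual rRNA left out, 5 with the 2 groups alone, and 2 or 1 in DESeq2 with or without independent filtering. At 3 HPI DESeq2 gave 3 or 1. With no replicate block Jun (adjusted p = 0.120), Ddit3 (0.138) and Bcl2l11 (0.0745) at 8 HPI, Jun (0.0958) and Map3k5 (0.223) at 16 HPI and Atf3 at 24 HPI (0.0844) also lost their calls. From 8 to 16 HPI DESeq2's Wald test lost Map3k12 (adjusted p = 0.0558) and called Mapk8ip1 (-0.14, 0.0362), and over all 6 groups its likelihood ratio test lost Map2k7 (0.112) and called Mapk8ip1 (0.0426). Leaving out a replicate number gave adjusted permutation p from 0.195 to 0.421 for Map3k12 over Map3k13, 0.0112 to 0.512 for Map2k4 over Map2k7, 0.0810 to 0.421 for the Mapk10 share and 0.0340 to 0.421 for the Mapk8ip3 share. The causes were not tested. Depth limits Map3k13 most, with 176 to 375 counts.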
